A study of Mus musculus with 8 samples.

Results

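The 10 genes described here are typical of neutrophils and of the acute-phase response, the early systemic reaction to infection or injury: S100a8, S100a9, Saa3, Lcn2, Spp1, C3, Acod1, Ltf, Cd14 and Il1b. They are 10 of the 22911 genes that could be named on the array and were read by 14 of its 56605 features. They were selected on measured values, the ratio of mutant to wild-type RNA, because several were far higher in the mutant RNA of pair 4. Those ratios are therefore given as a description, with no test. Pair 4 stood apart from the other pairs for these genes, so each result is given for pair 4 and for pairs 1 to 3 separately.

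The samples were kidneys, taken whole from mouse embryos of day 14.5, either wild type or carrying a conditional knockout of Mdm4, which encodes an inhibitor of p53. The mutation was made by Cre recombinase under control of the Hoxb7 promoter, which is active in the ureteric bud and collecting duct lineage, so most other cells of the organ keep the gene. The 4 wild-type and 4 mutant RNAs were hybridised as 4 pairs, each on 2 arrays with the dyes exchanged, which made 8 arrays and n = 4 pairs. The labels give no strain or sex, do not state whether an RNA was pooled from several embryos, and do not say what pairs the RNAs beyond their shared arrays. The spread between pairs may therefore be partly technical.

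S100A8 and S100A9 form calprotectin, a metal-binding complex stored in neutrophils and released at sites of inflammation. Lipocalin-2 and lactoferrin starve bacteria of iron, serum amyloid A3 is an acute-phase protein made largely outside the liver, C3 is the central protein of the complement cascade, and osteopontin (Spp1) is a secreted ligand of integrins and CD44. Acod1 makes itaconate in activated myeloid cells, Cd14 presents bacterial endotoxin to Toll-like receptor 4, and interleukin-1 beta (Il1b) is a cytokine released through the inflammasome. Several of these genes are not restricted to blood cells: injured epithelia, the kidney tubule among them, can make lipocalin-2, osteopontin and C3.

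RefSeq start sites (GRCm38.p6) were matched for 9 of the 10 genes, and no entry was used for Cd14. The 250 bases before each start were searched on both strands for 4 motifs. The C/EBP-like motif TTNNGCAA, named for factors that act in myeloid and acute-phase gene control, was present in the promoter of 5 of 9 genes (Lcn2, S100a9, Saa3, Ltf and C3), against 9.55% of the 27025 genes with a promoter sequence. An NF-kB-like motif, GGGA and CC set 4 bases apart, was present in 2 of 9 (Acod1 and C3), against 17.3%. The STAT-like motif TTCNNNGAA was present in 0 of 9, against 7.18%, and TATAAA in 4 of 9 (Il1b, S100a8, Spp1 and Acod1), against 13%. A match describes the letters in this window and no more, and the genes were not chosen independently of their biology. For Spp1 the count uses its first listed start, and its other listed start has a C/EBP-like match.

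The 6 promoters below belong to the genes that were also high in the wild-type RNA of pair 4, the pattern described further on. The 5 genes counted with the C/EBP-like motif are among them, as is Acod1, which has no such match in this window. Spp1, with a match only at its other start, is not. Any link between the motif and the wild-type level was not tested. Each sequence runs 5′ to 3′ along the gene and ends at the base before the start. Capitals mark the C/EBP-like motif in the first 5, the NF-kB-like motif in C3 and Acod1, and TATAAA in Acod1. The windows are chr2:32387740-32387989 (- strand) for Lcn2, chr3:90695722-90695971 (- strand) for S100a9, chr7:46715677-46715926 (- strand) for Saa3, chr9:111019042-111019291 (+ strand) for Ltf, chr17:57228137-57228386 (- strand) for C3 and chr14:103046762-103047011 (+ strand) for Acod1.
Lcn2: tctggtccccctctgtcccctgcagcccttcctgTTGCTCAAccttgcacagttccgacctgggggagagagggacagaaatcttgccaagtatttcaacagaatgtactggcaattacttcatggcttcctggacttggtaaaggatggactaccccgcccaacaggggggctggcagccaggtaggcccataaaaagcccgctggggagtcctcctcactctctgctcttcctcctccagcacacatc
S100a9: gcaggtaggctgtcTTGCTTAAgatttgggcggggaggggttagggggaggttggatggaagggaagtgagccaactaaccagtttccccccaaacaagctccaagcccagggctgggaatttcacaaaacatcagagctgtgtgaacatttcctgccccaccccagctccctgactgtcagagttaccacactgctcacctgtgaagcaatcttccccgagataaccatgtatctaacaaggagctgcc
Saa3: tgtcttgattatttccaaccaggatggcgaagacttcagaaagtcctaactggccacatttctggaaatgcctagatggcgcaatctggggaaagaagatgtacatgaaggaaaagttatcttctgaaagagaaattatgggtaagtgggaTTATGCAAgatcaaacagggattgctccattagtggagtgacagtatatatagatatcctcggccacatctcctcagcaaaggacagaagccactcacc
Ltf: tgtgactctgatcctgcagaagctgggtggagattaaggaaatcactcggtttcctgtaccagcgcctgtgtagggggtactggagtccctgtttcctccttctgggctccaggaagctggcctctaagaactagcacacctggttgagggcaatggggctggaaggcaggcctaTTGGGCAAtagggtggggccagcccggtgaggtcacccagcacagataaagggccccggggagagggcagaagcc
C3: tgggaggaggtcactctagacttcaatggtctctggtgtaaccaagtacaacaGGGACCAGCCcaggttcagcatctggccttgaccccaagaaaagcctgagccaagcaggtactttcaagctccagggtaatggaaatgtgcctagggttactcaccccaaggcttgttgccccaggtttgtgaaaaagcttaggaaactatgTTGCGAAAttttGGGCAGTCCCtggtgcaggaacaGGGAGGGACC
Acod1: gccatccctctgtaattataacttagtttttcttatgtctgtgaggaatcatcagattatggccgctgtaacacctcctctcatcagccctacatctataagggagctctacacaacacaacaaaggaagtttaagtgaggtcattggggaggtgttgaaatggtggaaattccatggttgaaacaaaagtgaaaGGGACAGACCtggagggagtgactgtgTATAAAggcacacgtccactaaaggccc

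All levels below are log2 intensities after background correction and normalisation of each dye channel, averaged over the 2 arrays of a pair. They can be set against each other for 1 gene but not between genes, because probes differ in brightness. Ratios are log2 of mutant over wild type in 1 pair, so that 1 unit is a 2-fold difference. A channel counts as well above background by the scanner software's own flag, and each genotype had 8 channels. Of the 10 genes, 8 had a probe that passed the filter on dim probes (6 or more of a genotype's 8 channels well above background). Ltf and Il1b did not pass and are described from their brightest probe.

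In pair 4 all 10 genes were over 2-fold higher in mutant than in wild-type RNA, from 1.71 for Cd14 to 5.38 for Spp1, with a median of 3.73. Among all 16013 genes tested, 141 (0.881%) were over 2-fold higher in pair 4. That comparison chose the genes, so nothing is read from the members' count beside it. In pairs 1, 2 and 3 the median ratios of the same 10 genes were 0.18, 0.20 and 0.15, whereas the medians over all genes were -0.01, -0.0026 and 0.04. The median over all genes in pair 4 was 0.03. Of the 10 genes, 5 (S100a8, S100a9, Saa3, Acod1 and Ltf) were higher in mutant RNA in all 4 pairs, 4 of the 8 that passed the filter, and 12.1% of all genes tested were. Pair 4, which chose the genes, is 1 of those 4 pairs, so nothing is read from this count. The same 5 genes were the ones higher in each of pairs 1 to 3, where the share of all genes was 16.7%. Of these 5, Saa3 and Acod1 passed the filter only through their mutant channels, and Ltf did not pass. The fit over all genes, which used limma with Benjamini-Hochberg adjustment, called 0 of 16013 genes (0%). Its lowest adjusted p was 0.0750, and 1699 genes had an unadjusted p under 0.05. Median centring in place of loess gave 42 called genes, and a fit of the single arrays with the pair as a replicate block gave 39.

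**Figure D1:**
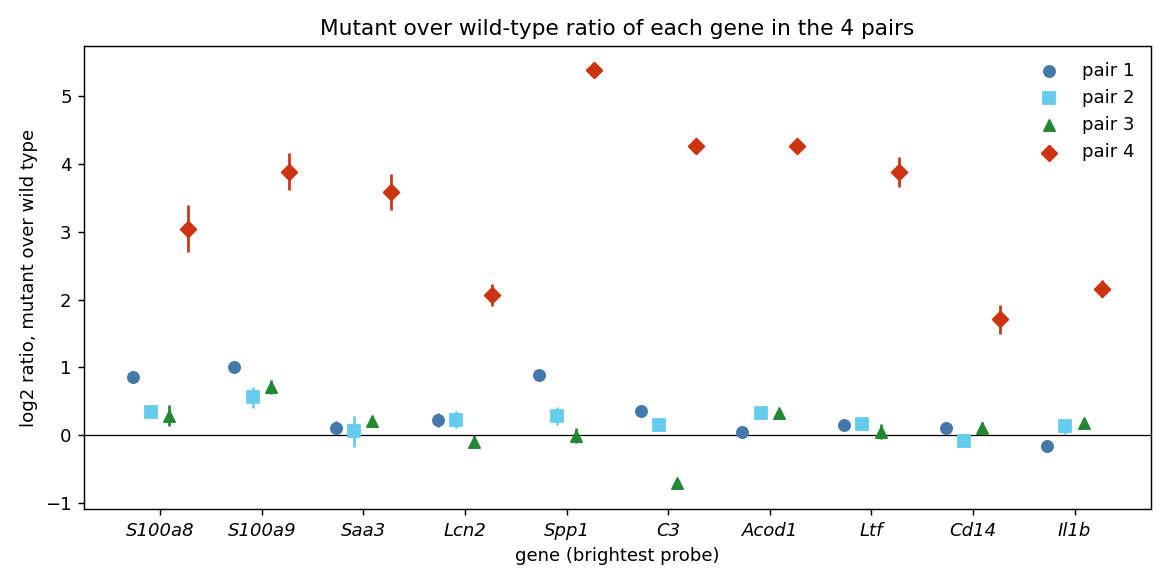
Log2 ratio of mutant over wild-type RNA for the brightest probe of each gene. Markers are pairs 1 to 4 (mean of 2 dye-swapped arrays) and vertical lines join the values of the 2 arrays. All 10 genes lie highest in pair 4, between 1.71 and 5.38, and between -0.71 and 1.01 in pairs 1 to 3.

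The calprotectin subunits were the genes with the most even direction. S100a8 had levels of 6.91, 6.82, 6.73 and 7.16 in the wild-type RNAs of pairs 1 to 4 and of 7.76, 7.17, 7.02 and 10.20 in the mutant RNAs. Each mutant RNA lay above its own wild-type partner, and the mutant RNAs of pairs 2 and 3 lay near the top of the wild-type range. The ratios were 0.85, 0.35, 0.29 and 3.04, or 1.81-, 1.27-, 1.22- and 8.25-fold. The wild-type RNA was dim, well above background in 1 of 2 channels in each of pairs 2 and 3. In pairs 1 and 4 it was so in 2 of 2. S100a9 had wild-type levels of 7.38, 7.23, 6.97 and 8.76 and mutant levels of 8.39, 7.79, 7.68 and 12.64. Its ratios were 1.01, 0.56, 0.71 and 3.88, or 2.02-, 1.48-, 1.64- and 14.8-fold. Both genes were higher in mutant RNA on 8 of 8 arrays. The mean over pairs 1 to 3 was 0.50 ± 0.31 (SD, n = 3) for S100a8 and 0.76 ± 0.23 for S100a9. With all 4 pairs the means were 1.13 ± 1.30 and 1.54 ± 1.57 (SD, n = 4), where the SD exceeds the mean because of pair 4.

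Saa3 was near the detection limit outside pair 4. Its wild-type levels were 6.90, 6.85, 6.76 and 8.46 and its mutant levels 7.01, 6.91, 6.97 and 12.04. The mutant RNA of pair 4 was far above every other RNA, and the wild-type RNA of pair 4 came next. The ratios were 0.11, 0.06, 0.21 and 3.58, the last a 12-fold difference. The wild-type RNA was well above background in 1 of 2 channels in each of pairs 1 to 3 and in 2 of 2 in pair 4.

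Lcn2, which encodes lipocalin-2, had wild-type levels of 7.85, 7.68, 7.94 and 11.54 and mutant levels of 8.07, 7.91, 7.85 and 13.61. Both RNAs of pair 4 were above all 6 others, and the genotypes overlapped in pairs 1 to 3. The ratios were 0.22, 0.23, -0.09 and 2.07, so the 4.20-fold ratio of pair 4 is taken against a raised wild-type level. Another, dimmer probe gave ratios of 0.05, 0.08, -0.10 and 2.70.

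Ltf, which encodes lactoferrin, was well above background in pair 4 on every channel and in the other pairs in 1 mutant channel each of pairs 2 and 3. Its wild-type levels were 6.59, 6.52, 6.61 and 8.32 and its mutant levels 6.74, 6.69, 6.66 and 12.20. The pair 4 ratio was 3.88, or 14.7-fold. The ratios of pairs 1 to 3, from 0.06 to 0.17, compare signals that are mostly not well above background.

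C3 was bright in every RNA. Its wild-type levels were 8.5, 8.65, 9.43 and 11.46 and its mutant levels 8.86, 8.79, 8.72 and 15.72. It was lower in mutant than in wild-type RNA in pair 3 and higher in the other pairs, with ratios of 0.36, 0.15, -0.71 and 4.26. The pair 4 ratio was 19.2-fold. Another C3 probe gave 0.23, 0.10, -0.59 and 3.44, the same signs with a smaller pair 4 value. C3 was also the gene whose mean turned sign without pair 4, from 1.01 ± 2.21 (SD, n = 4) to -0.07 ± 0.56 (SD, n = 3).

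Spp1, which encodes osteopontin, had the highest pair 4 ratio of the 10 genes and the 2nd highest of the 16013 genes tested. Its wild-type levels were 7.59, 7.60, 7.75 and 8.40 and its mutant levels 8.48, 7.88, 7.74 and 13.78. The ratios were 0.89, 0.28, -0.01 and 5.38, the last a 41.6-fold difference. The 2 arrays of pair 4 gave 5.33 with mutant RNA in Cy5 and 5.43 with mutant RNA in Cy3, so the dyes differed little.

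Acod1 was not well above background in any wild-type channel of pairs 1 to 3. Its wild-type levels were 6.55, 6.67, 6.62 and 8.11 and its mutant levels 6.60, 7.0, 6.95 and 12.38. In pair 4 both RNAs were well above background and the ratio was 4.27, or 19.2-fold. The mutant RNA was well above background in pairs 2 and 3 (log2 ratios 0.33 and 0.33) and not in pair 1 (0.05).

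Cd14, the endotoxin receptor, had the smallest pair 4 ratio of the 10 genes. It had wild-type levels of 7.72, 7.75, 7.51 and 7.54 and mutant levels of 7.82, 7.67, 7.62 and 9.25. Only the mutant RNA of pair 4 left the range of the others. The ratios were 0.10, -0.08, 0.11 and 1.71, or 3.26-fold in pair 4, and its other probe gave 1.55 there. The cytokine gene Il1b was not well above background in any of the 8 wild-type channels, with levels of 6.54, 6.46, 6.46 and 6.68, and its mutant levels were 6.37, 6.59, 6.65 and 8.84. In pair 4 it was at least 4.48-fold higher in mutant RNA, a bound set by the dimmest signals that were still well above background on those arrays or by its own signal where that was higher. Its other probe gave a bound of at least 1.88-fold in pair 4.

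The wild-type RNA of pair 4 was itself unlike the other 3 wild-type RNAs in these genes. For 6 of the 10 genes it lay over 2-fold above each of the other wild-type RNAs, and 15 of the 16013 genes tested (0.0937%) did so. Of those 15 genes, 5 were among the 10 (Lcn2, C3, Saa3, S100a9 and Acod1), and Ltf, the 6th, was not among the genes tested. Against the mean of the other 3 wild-type RNAs, Lcn2 was 13.2-fold higher, C3 6.06-fold, Saa3 3.08-fold and S100a9 2.96-fold. The size of the Lcn2 rise depended on the probe. Its other, dimmer probe gave 2.57-fold, with wild-type levels of 6.90, 6.62, 6.97 and 8.19 in pairs 1 to 4. The other C3 probe gave 6.35-fold. Acod1 was at least 2.83-fold and Ltf at least 3.36-fold higher, because the other wild-type RNAs were not well above background. S100a8 was 1.26-fold and Spp1 1.69-fold higher, Cd14 stood at 0.923 of the others' level, and Il1b was not well above background in any of them. The other Cd14 probe stood at 1.19 times the others' level. For the other wild-type RNAs the same count over all genes tested was 10 in pair 1, 2 in pair 2 and 35 in pair 3. There is 1 wild-type RNA in pair 4, so this difference has no replicate check beyond its 2 arrays. The choice of genes used the ratio within pairs, of which the wild-type level is a part. Whether the raised wild-type level is independent of that choice was not tested.

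**Figure D2:**
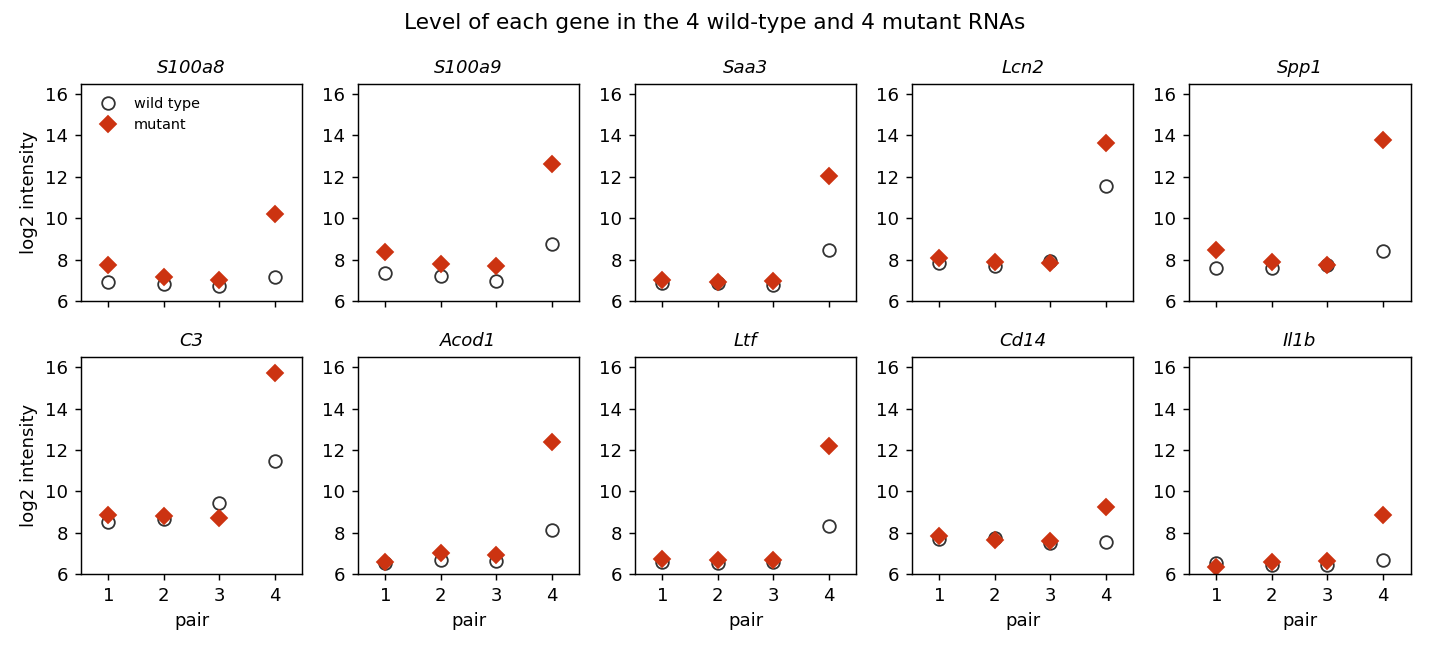
Log2 intensity of each gene in the wild-type RNA (open circles) and the mutant RNA (filled diamonds) of pairs 1 to 4, 1 panel per gene. Each point is the mean of 2 arrays for the gene's brightest probe. The wild-type circle of pair 4 stands above the other circles for Lcn2 (11.54 against 7.68 to 7.94), C3, Saa3, S100a9, Acod1 and Ltf, and inside their range for Cd14 (7.54 against 7.51 to 7.75).

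The unnormalised intensities of the pair 4 arrays, net of local background, are given here because signal shared between dye channels would raise the dimmer channel. With mutant RNA in Cy5, the wild-type channel of Lcn2 was 1600 intensity units, against 68 to 91.5 in pairs 1 to 3. With mutant RNA in Cy3 it was 4767.5 units, against 136.5 to 222. As a share of the mutant channel, the wild-type channel of the brightest probes on the array with mutant RNA in Cy5 was lowest for Spp1 (0.484%) and highest for Lcn2 (7.72%) and Cd14 (7.68%). The other 7 genes lay close together, from 1.1% for Acod1 to 2.31% for Saa3, with C3 at 1.49%, Ltf at 1.74% and S100a9 at 2.00%. With mutant RNA in Cy3 the share was 6.42% for Spp1, 7.83% for Il1b, 53.8% for Cd14 and 76.6% for Lcn2. There too the other 6 genes lay together, from 12% for Acod1 to 18.7% for C3, with Ltf at 15.1%, S100a9 at 15.8% and Saa3 at 18.6%. The part of shared signal in the raised wild-type levels was not tested. With only the arrays in which wild-type RNA carried Cy3, 6 of 10 genes again lay over 2-fold above each other wild-type RNA, and with only the Cy5 arrays 6 of 10 did.

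Of the 141 genes over 2-fold higher in the mutant RNA of pair 4, 12 were also over 2-fold raised in its wild-type RNA, and 129 were not. Besides the 5 genes above, the genes raised in the wild-type RNA of pair 4 were Guca2b, Prap1, Lrg1, Cxcl1, Aqp8, Abcb4, Abcb1b, Pisd-ps3, Mterf4 and Stk25. Lrg1, a secreted acute-phase glycoprotein, was 5.88-fold and Cxcl1, a neutrophil chemokine, 3.52-fold above the mean of the other wild-type RNAs. Guca2b, an intestinal peptide hormone, and Prap1, a secreted protein of intestinal and uterine epithelium, were 24.0-fold and 13.5-fold above it.

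By the size of the pair 4 ratio minus the mean of pairs 1 to 3, among the 1485 genes whose pair 4 arrays both lay above the 6 others, the 12 genes most like the members in pattern were Ccl20, Cxcl1, Tmprss4, Urah, Hsd11b1, Krt6b, Aqp8, Sftpd, Prap1, Guca2b, Cfb and S100g. The likeness rests on 4 pairs, and mainly on pair 4. Ccl20, a chemokine of epithelia, had the highest pair 4 ratio of them, 5.53, after -0.02, -0.03 and 0.10 in pairs 1 to 3. Cxcl1 had 4.51 after -0.18, 0.0006 and 0.20. Cfb, the complement factor that acts with C3 in the alternative pathway, had 3.25 after -0.02, -0.37 and 0.67. The others ranged from 3.23 (Guca2b) to 4.34 (Urah) in pair 4. They include the keratin Krt6b, the lung surfactant protein gene Sftpd, the water channel Aqp8 and the calcium-binding S100g, which are known from epithelia.

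**Figure D3:**
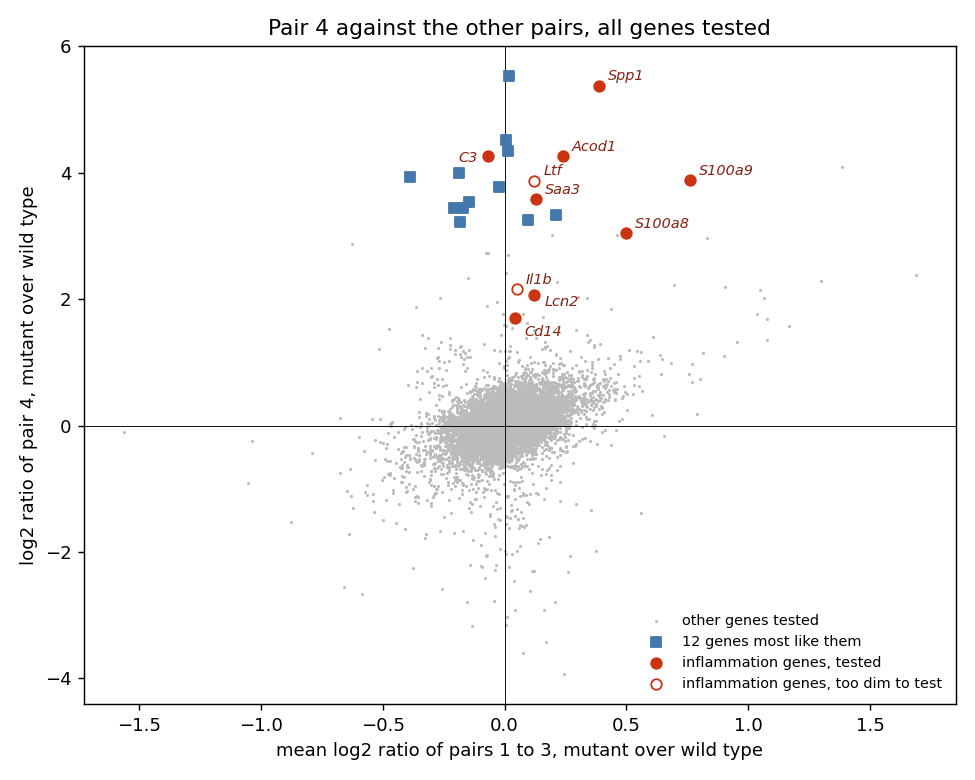
Log2 ratio of mutant over wild type in pair 4 against the mean of pairs 1 to 3 for the 16013 genes tested (grey), with the 10 inflammation genes (red, open where too dim to be tested) and the 12 genes most like them (blue squares). The inflammation genes lie between 1.71 and 5.38 in pair 4, and S100a8 and S100a9 lie farthest to the right among them, at 0.50 and 0.76.

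C3 shared more than the pair 4 value with 3 of these genes. Across the wild-type RNAs of pairs 1 to 4, C3 stood at 8.5, 8.65, 9.43 and 11.46, Guca2b at 7.96, 8.35, 10.14 and 13.40, Prap1 at 8.61, 9.19, 10.96 and 13.34, and Aqp8 at 6.98, 7.16, 8.04 and 9.07. The wild-type RNA of pair 3 was thus the next highest after pair 4 for all 4 genes. In pair 3 the ratios of mutant over wild type were -0.71 for C3, -1.44 for Guca2b, -1.64 for Prap1 and -0.96 for Aqp8. Lcn2, with 7.94 in the wild-type RNA of pair 3 against 7.85 and 7.68, and Saa3, with 6.76 against 6.90 and 6.85, did not share that rise in pair 3. This likeness was noticed after the values were seen.

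Genes listed as neutrophil markers were compared next, because several of the 10 genes are abundant in these cells. The list was not split by the stage of neutrophil maturation at which each gene is transcribed. Of 10 neutrophil markers listed, 9 were on the array and 4 passed the filter, with a median of -0.05 in pair 4. In pair 4 the granule genes Mpo, Elane and Camp had ratios of 0.03, -0.25 and -0.01, and Mpo had 0.30, 0.39 and 0.40 in pairs 1 to 3. Ngp, another granule gene, was not well above background in any channel, and Ly6g was not matched to a probe. Retnlg, a resistin-like gene of neutrophils that failed the filter and was picked after its value was seen, was at least 2.22-fold higher in the mutant RNA of pair 4. Summed over the 4 markers that passed, the neutrophil signal was 33390 to 62539 in the wild-type and 32911 to 48728 in the mutant RNAs, but the single Csf3r probe, for the receptor of a granulocyte growth factor, made up 97.3% to 98.9% of each sum. Csf3r had a ratio of -0.09 in pair 4. Without it, the sum over Mpo, Elane and Camp in pairs 1 to 3 was 775 to 871 in the wild-type RNAs. In the mutant RNAs of those pairs it was 771 to 887. In pair 4 it was 612 in wild-type and 557 in mutant RNA. The brightest of these 3 probes, that of Elane, had wild-type levels of 9.21, 9.06, 9.02 and 8.49 in pairs 1 to 4. Its mutant levels were 9.10, 8.85, 8.99 and 8.24, so this sum also leans on 1 probe. Of the wider list of 28 neutrophil granule, receptor and surface genes, 16 passed the filter, 4 were higher and 2 lower in all 4 pairs, and 2 were over 2-fold higher in pair 4. These 2 were the myeloid lectin receptor Clec4d, at least 2.38-fold higher because it was not well above background in any wild-type channel, and Pglyrp1 (1.07), a peptidoglycan-binding granule protein. Of the 16 that passed, 9 were higher in pair 4, among them Fpr2 (0.49), whereas Ltb4r1 (-0.28) and Padi4 (-0.23) were lower. Clec4e, Fpr1 and Cxcr2 failed the filter and were not well above background in any wild-type channel. In pair 4 they were at least 1.89-, 1.34- and 1.21-fold higher. Stfa1 (-0.17) and Chil3 (-0.08), which also failed, were lower there. These 7 names were picked after their values were seen. The list median in pair 4 was 0.02, against 0.03 over all genes.

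Macrophages, which are resident in the embryonic kidney, and monocytes can also make several of these proteins. Of 9 macrophage markers that passed, 6 were higher in all 4 pairs, against 12.1% of all genes tested, and their median in pair 4 was 0.42. The summed macrophage signal was 8623 to 10240 in wild-type and 9798 to 13775 in mutant RNAs, and its mutant maximum was in pair 1. Of 6 monocyte markers 1 was over 2-fold higher in pair 4, Ly6c2 with 1.32. All 6 were higher in pair 4, with a median of 0.36, and 1 was higher in all 4 pairs. The summed monocyte signal was 47614 to 56759 in the wild-type RNAs and 47963 to 56660 in the mutant RNAs of pairs 1 to 3. Its maximum, 78770, was in the mutant RNA of pair 4. The share of single genes in the monocyte and macrophage sums is not given, so neither sum is read as an amount of cells. All 14 kidney markers listed passed the filter in these RNAs, with a median of -0.18 in pair 4. The part of these cell types in the 10 genes' ratios was not tested, and fewer cells of a type cannot be told apart from less RNA per cell in whole-organ RNA.

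Sex-linked transcripts differed within pairs: Eif2s3y, a Y-linked gene, had ratios of 3.91, 2.26, -2.02 and 4.09, and Xist, expressed from the inactive X, -2.71, -0.23, 2.48 and -2.80. The part of this difference in the values of the 10 genes was not tested. Mdm4, the targeted gene, had ratios of -0.03, -0.06, -0.28 and -0.35, and which exons its probe covers relative to the deletion was not determined. Pair 4 was also the most variable pair over all genes, with an SD of 0.37 across genes against 0.18 to 0.23, and with 155 genes over 2-fold lower.

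The 10 pathway lists place the 10 genes among their partners. No gene of any of the lists was called by limma. Over all genes tested, 12.1% were higher in all 4 pairs and 0.881% were over 2-fold higher in pair 4. Some genes counted in the lists passed the filter only through their mutant channels, among them Clec4d, Ccl3 and Ptgs2. In the liver acute-phase list, 11 of 22 passed the filter, 1 was higher in all 4 pairs and 2 were over 2-fold higher in pair 4: Mt1, a metallothionein, with 1.20, and Hp, the haemoglobin-binding haptoglobin, with 1.13. Mt2 had 0.91. The liver serum amyloid genes went otherwise than Saa3: Saa1 had -0.02 and Saa2 -0.77 in pair 4. These 2 names and their values were picked after the values were seen.

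In the list of chemokines that attract neutrophils and monocytes, 6 of 9 passed, 3 were higher in all 4 pairs and 2, Ccl20 and Cxcl1, were over 2-fold higher in pair 4. Ccl4 had 0.96, and the list median in pair 4 was 0.88. Cxcl5, which failed the filter and was picked after its value was seen, was not well above background in any wild-type channel and was at least 55.5-fold higher in the mutant RNA of pair 4. In the cytokine and receptor list, 13 of 19 passed, 7 were higher in all 4 pairs and 0 were over 2-fold higher in pair 4. The oncostatin M receptor gene Osmr had 0.90, the alarmin Il33 0.73 and the interleukin-1 antagonist Il1rn 0.30. Csf3, the neutrophil growth factor, failed the filter and had 2.41 in pair 4, with both RNAs of that pair above background. It too was picked after its value was seen.

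Genes of NF-kB, STAT3 and C/EBP signalling were higher in pair 4 in part. Of 21 that passed, 5 were higher and 1 lower in all 4 pairs, and 3 were over 2-fold higher in pair 4: the NF-kB target Ier3 (2.70), the transcription factor Cebpd (1.21) and the NF-kB inhibitor Tnfaip3 (1.04). Of 17 genes of endotoxin sensing and the inflammasome, 1 was higher and 1 lower in all 4 pairs and 1 was over 2-fold higher in pair 4, the bacterial lipoprotein receptor Tlr2 (1.08). The intracellular sensors Nod1 and Nod2 had 0.57 and 0.51. The 10 genes' Cd14 belongs to the same machinery and had 1.71.

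Of 16 complement genes that passed, 5 were higher in all 4 pairs, 0 were lower in all 4, and 2 were over 2-fold higher in pair 4, Cfb (3.25) and the complement regulator Cd55 (1.41). Cd55 was also higher in pairs 1 to 3, with 1.12, 0.64 and 0.06. Of 10 other S100 genes, 2 were higher in all 4 pairs and 1, S100g (3.33), was over 2-fold higher in pair 4. S100a11 had -0.19 and S100a16 -0.27 there. S100a8 and S100a9 had 3.04 and 3.88 there.

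Of 11 iron carrier and lipocalin receptor genes, 2 were higher and 1 lower in all 4 pairs and 0 were over 2-fold higher in pair 4. Transferrin (Trf) had 0.60, the endocytic receptor gene Lrp2 0.65 and ferritin light chain Ftl1 -0.24. Of 10 osteopontin receptor and tubule injury genes that passed, 2 were higher and 1 lower in all 4 pairs. Hmox1, the haem-degrading enzyme, was over 2-fold lower in pair 4 with -1.98. The osteopontin receptors Cd44 and Itgav had 0.92 and 0.65. Havcr1, the tubule injury marker, failed the filter, was picked after its value was seen, and had 2.79 in pair 4 with both RNAs of that pair above background.

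**Figure D4:**
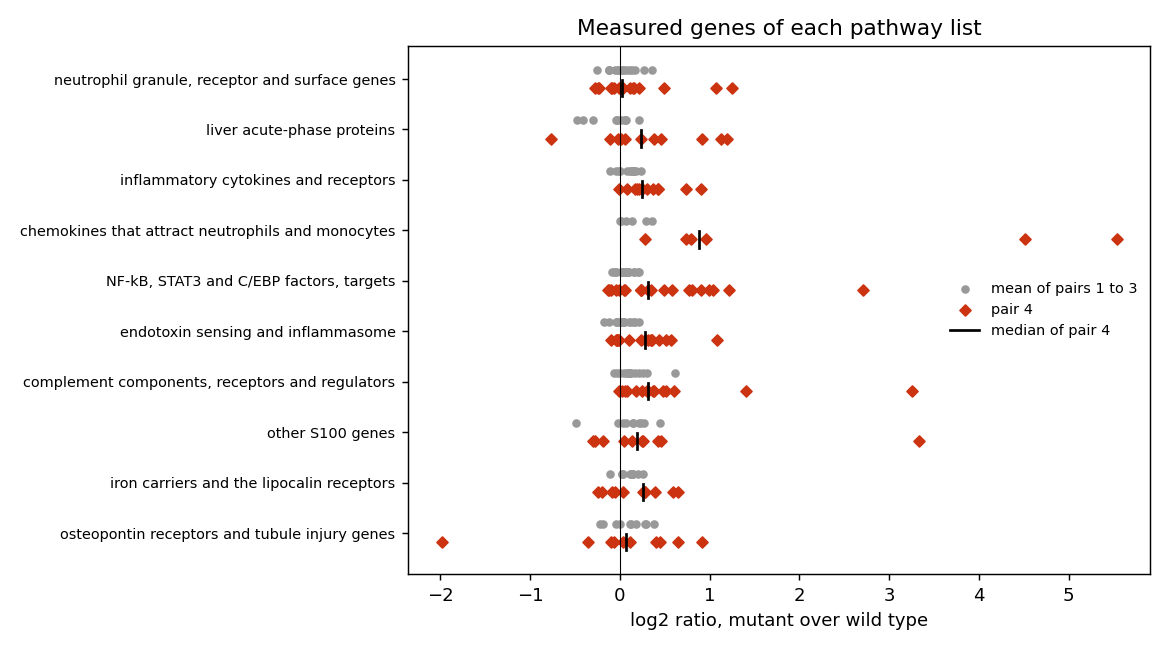
Log2 ratio of mutant over wild type for the genes of 10 pathway lists that passed the filter, as the mean of pairs 1 to 3 (grey circles) and in pair 4 (red diamonds), with the median of pair 4 (black bar). The list medians in pair 4 run from 0.02 to 0.88, and single genes reach 5.53 (Ccl20) and -1.98 (Hmox1).

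Lists of other epithelia were added after the pair 4 genes were seen. Of 12 uterine epithelium genes that passed, 3 were over 2-fold higher in pair 4, Prap1, S100g and Aqp8, which had prompted the list, while the uterine transcription factor genes Pgr and Foxa2 had -0.14 and 0.23. Of 6 intestinal epithelium genes 1 was over 2-fold higher, of 5 genes of decidua and trophoblast 1, and of 8 urothelial genes 0. Of 6 lung epithelium genes, only Sftpd passed the filter, and 4 were not well above background in any channel. The part of other tissues in the pair 4 values was not tested.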

How the data were processed

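Dual-colour Agilent arrays of total RNA were used. The authors deposited 8 scanner files with spot and background intensity per channel. A table of log10 ratios was also deposited. Feature Extraction, Agilent's scanner software, is given as version 8.5.1.1 in the submitters' processing notes and as 10.7.3.1 in the file headers. All arrays shared 1 slide, and the arrays' number limits the precision.

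Median intensities were background-corrected by normexp (offset 50) and loess-normalised per array in limma 3.58.1 under R 4.3.3, leaving out control spots (3671 per array). Channel levels were then aligned by Aquantile. No spot was saturated, and 60.7% to 70.2% of spots were well above background per channel. Of 56605 probes 34592 passed the filter. RefSeq accessions named the genes (GRCm38.p6), each represented by its brightest kept probe, or its brightest probe where none was kept. Both arrays of a pair were averaged. Ratios of all genes were fitted against 0 with lmFit and eBayes, two-sided, with a threshold of 0.05 on Benjamini-Hochberg adjusted p-values. The fit was checked on simulated data.

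The members and lists were chosen with earlier results of these data known. From each list were named up to 3 genes with the largest difference between pair 4 and pairs 1 to 3, and 5 neutrophil markers, with 1 gene of those so selected not reported here. The 12 like genes were ranked by the same difference, leaving out clone and predicted-gene names. Alternatives were other centring, processed signals, the deposited table, no filter, 1 dye orientation, a replicate block and leaving out each pair.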

Additional observations from a re-analysis of the deposited data

Results flagged for a closer look

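In each of the following, 1 of 4 values lay so far from the others that its gap to the nearest, as a share of the whole range, exceeded Dixon's critical value for 4 values. The outlying value was in pair 4 every time. Among the log2 levels of the 4 wild-type RNAs, that of pair 4 was outlying for Lcn2 (11.54), Saa3 (8.46), Ltf (8.32) and Acod1 (8.11). By chance about 1 in 20 groups of 4 would show such a value, but the wild-type level is also part of the ratio that chose the genes.

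The ratios and mutant levels below were used to choose the genes, so an outlying pair 4 value was fixed by that choice, and they are listed as a description that tests nothing. Among the log2 ratios of mutant over wild type the pair 4 value was 5.38 for Spp1, 4.27 for Acod1, 3.88 for S100a9, 3.88 for Ltf, 3.58 for Saa3, 2.16 for Il1b, 2.07 for Lcn2 and 1.71 for Cd14. Among the genes of like pattern, also selected for a high pair 4 value, it was 5.53 for Ccl20, 4.51 for Cxcl1, 4.34 for Urah, 3.99 for Hsd11b1, 3.94 for Tmprss4, 3.78 for Krt6b and 3.45 for Sftpd. The log2 level of the pair 4 mutant RNA was 15.72 for C3, 13.78 for Spp1, 13.61 for Lcn2, 12.64 for S100a9, 12.38 for Acod1, 12.20 for Ltf, 12.04 for Saa3, 9.25 for Cd14 and 8.84 for Il1b.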

How the results depend on the processing

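The count of genes called over all 16013 tested was 0 with loess and 0 under no filter, the median of a gene's probes, either dye orientation alone, processed signals and the deposited table. It was 42 with median centring and 39 with a replicate block (correlation 0.586 between the arrays of a pair). Leaving out each pair gave 0 to 0. The members' median ratio in pair 4, 3.73, was 4.23 with processed signals and 4.33 in the deposited table. It ran from 3.47 to 3.98 over the other alternatives. Without pair 4 the mean of every one of the 10 members moved by over 1.5 times: S100a8 from 1.13 to 0.50, S100a9 from 1.54 to 0.76, Saa3 from 0.99 to 0.13, Lcn2 from 0.61 to 0.12, Spp1 from 1.64 to 0.39, Acod1 from 1.25 to 0.24, Ltf from 1.06 to 0.12, Cd14 from 0.46 to 0.04, Il1b from 0.58 to 0.05 and C3 from 1.01 to -0.07. C3 was the only member to change sign under any alternative run, and its mean was 1.59 without pair 3. With processed signals and with the deposited table, 3 members moved by over 1.5 times: S100a8 to 2.24 and 2.28, Acod1 to 2.29 and 2.33, and Il1b to 1.68 and 1.78. Leaving out pair 3 moved 1 of 10 member means by that much, that of C3, and the remaining alternatives moved 0 of 10. The number of members raised in the wild-type RNA of pair 4 was 7 with processed signals, an alternative added after the data were seen. Weak signal limits Il1b, Ltf, Acod1 and Saa3 in pairs 1 to 3, and S100a8 in pairs 2 and 3.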
